A study of Homo sapiens with 18 samples.

Results

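The machinery that copies DNA and the switch that starts it were followed as a set of 44 genes, all of them among the 15852 genes that could be tested on the arrays. The genes were chosen by name for their roles in DNA replication and the passage from G1 into S phase, and every probe that maps to them by RefSeq accession was taken from the scanner files. They fall into 7 roles: 6 subunits of the MCM helicase, 10 licensing and firing factors, 6 clamp and clamp loader proteins, 9 polymerase and primase subunits, 5 flap, ligase and single-strand binding proteins, 6 genes of G1/S control and 2 subunits of a chromatin assembly factor. All 44 were well above background on all 18 arrays. Each gene stands by the brightest of its probes. For the 11 genes with more than 1 probe, the other 12 probes gave no change in the opposite direction in any of the 65 pairs of probe and comparison in which the brightest probe was called. Some other probes were called where the brightest was not, or the reverse.

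Before S phase, the origin recognition complex, CDC6 and CDT1 load the MCM helicase onto DNA, and cyclin E with CDK2 later helps to fire the loaded origins through MCM10, CDC45 and the GINS complex. At the fork, polymerase alpha with primase starts each strand, the clamp PCNA is placed by RFC, polymerases delta and epsilon extend the strands, and RPA coats the single strands. Many of these genes are transcribed in late G1 by E2F factors, which pocket proteins such as RB1 and RBL1 hold back, and they are widely used as readouts of proliferation in liver cancer.

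The cells were EpCAM+ cells sorted from Huh1 and Huh7, 2 human hepatocellular carcinoma (HCC) cell lines, and EpCAM is a surface protein used to mark the tumor-initiating fraction of such lines. The labels list treatment with disulfiram (DSF, 0.1 µM) or 5-fluorouracil (5-FU, 1 µM) for 48 hours and then sorting, and with the control this gives 6 groups of 3 arrays. DSF is an inhibitor of aldehyde dehydrogenase and 5-FU is an antimetabolite that blocks thymidylate synthase and enters RNA and DNA. The methods name CuCl2 together with DSF and do not say what the control cells received, and the sorted cells of each line come from a single established line, so the results describe these lines and not HCC at large. Replicates came from independent experiments by the study's own account. In RNA from sorted cells, a lower share of cells in S phase and less of a transcript per cell cannot be told apart.

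Signal is given as log2 of the spot intensity relative to the 75th percentile of the same array, so a value of 0 equals that percentile, and differences are log2 values given ± SE of the fit, with 3 arrays in each group. Between 59.9% and 71.1% of probes per array were well above background and 0 spots were saturated. EPCAM, AFP, ALB and the other 5 markers of hepatic and sorted cells were well above background on all 18 arrays. Of the 10 measured markers of other cell types, PTPRC, CD68, PECAM1 and CDH5 also passed that limit on all 18 arrays, VWF on 13, COL1A1 and DCN on 11, CD3E on 6, COL1A2 on 2 and COL3A1 on 1. Summed over a list as multiples of the 75th percentile, the hepatic markers reached 617.8 to 1293, the 3 measured blood cell markers 1.08 to 4.49, the endothelial markers 0.25 to 0.62 and the fibroblast markers 0.020 to 0.294. In Huh7 the blood cell sum was 1.08 to 1.12 in the control and 2.35 to 3.71 after 5-FU, and the fibroblast sum was 0.083 to 0.095 and 0.217 to 0.294. Their part in the results was not tested. The Huh1 control, 5-FU and 2 DSF arrays lay on the first slide, Huh1 DSF replicate 3 with the Huh7 control, 5-FU and DSF replicate 1 arrays on the second, and Huh7 DSF replicates 2 and 3 alone on slide 3, which was scanned on a different day. Each array's 75th percentile lay 3.94 to 4.10 log2 units below its spike-in probes in the controls, 2.85 to 3.29 units below them after 5-FU and 3.78 to 4.31 units after DSF, with 3.78 for Huh1 DSF replicate 3 and 4.31 for both arrays of slide 3. The scale chosen thus bears on the 5-FU and the DSF comparisons, and values on the spike-in scale are given with the results.

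The promoters of 5 members are shown because their genes followed the main patterns below: relative to the 75th percentile, MCM6, E2F1 and RBL1 fell after 5-FU in Huh1 and rose in Huh7, CDT1 rose in both lines and POLA1 fell in both, although all of these falls became positive differences on the spike-in scale. Each is the 250 bases before the transcription start on the gene's own strand, from RefSeq on GRCh38.p14, and capitals mark an E2F-type word. The words searched were TTTGGCGC, TTTCCCGC, TTTCGCGC and TTTGCCGC on either strand, and words may overlap, as they do in the capitals of MCM6. MCM6 is at chr2:135876444-135876693 (minus strand), E2F1 at chr20:33686386-33686635 (minus strand), RBL1 at chr20:37095998-37096247 (minus strand), CDT1 at chr16:88803539-88803788 (plus strand) and POLA1 at chrX:24693668-24693917 (plus strand).
MCM6: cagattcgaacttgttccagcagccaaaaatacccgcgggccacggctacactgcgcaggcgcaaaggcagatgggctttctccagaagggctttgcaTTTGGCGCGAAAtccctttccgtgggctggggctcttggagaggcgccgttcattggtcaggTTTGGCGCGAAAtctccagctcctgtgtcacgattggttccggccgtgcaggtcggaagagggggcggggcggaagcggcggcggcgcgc
E2F1: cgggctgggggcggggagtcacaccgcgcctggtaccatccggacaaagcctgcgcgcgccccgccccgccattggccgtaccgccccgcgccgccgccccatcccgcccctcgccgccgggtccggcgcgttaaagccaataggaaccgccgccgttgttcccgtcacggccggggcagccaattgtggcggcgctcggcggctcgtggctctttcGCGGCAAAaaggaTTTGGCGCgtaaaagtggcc
RBL1: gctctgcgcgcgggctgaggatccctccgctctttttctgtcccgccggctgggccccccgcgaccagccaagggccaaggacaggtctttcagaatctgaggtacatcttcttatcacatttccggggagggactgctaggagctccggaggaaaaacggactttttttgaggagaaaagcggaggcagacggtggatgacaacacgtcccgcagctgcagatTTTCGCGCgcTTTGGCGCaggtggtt
CDT1: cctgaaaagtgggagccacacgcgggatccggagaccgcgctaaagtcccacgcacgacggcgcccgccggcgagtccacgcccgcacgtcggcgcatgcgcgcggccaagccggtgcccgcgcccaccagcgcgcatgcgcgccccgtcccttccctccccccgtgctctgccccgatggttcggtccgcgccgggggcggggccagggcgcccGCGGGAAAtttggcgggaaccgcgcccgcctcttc
POLA1: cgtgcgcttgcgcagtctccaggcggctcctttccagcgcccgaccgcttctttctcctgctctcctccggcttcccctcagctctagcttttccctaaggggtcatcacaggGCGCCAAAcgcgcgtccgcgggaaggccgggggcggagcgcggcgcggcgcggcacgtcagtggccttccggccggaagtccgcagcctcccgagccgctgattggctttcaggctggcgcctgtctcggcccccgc

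A promoter entry was at hand for 36 of the 44 members. Those without were MCM4, MCM5, GINS4, POLD3, RPA2, RPA3, CCNE2 and CDK2. In the window from 250 bases before to 50 bases after the start, 19 of 36 members (52.8%) held an E2F-type word, against 4.95% of 12453 promoters of tested genes and 3.33% of all 27305 promoters. All 4 MCM helicase promoters held a word, 5 of 9 among licensing and firing factors, 3 of 4 in G1/S control, 4 of 8 among polymerases and primase, 2 of 6 among clamp and loader genes, 1 of 3 among flap, ligase and RPA genes, and 0 of 2 in chromatin assembly. MCM6 held 4 matches, starting at positions -152 and -148 and at -90 and -86 relative to the transcription start, with an overlap within each pair. The CCAAT word on either strand was in 55.6% of the members and in 36.6% of promoters of tested genes. A match is a description of the letters and is no site or cause, and a window without a match says only that these letters are not in it.

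The drugs differed in how the 44 genes moved, and so did the lines. After 5-FU in Huh7, 34 members were higher and 3 lower, where 32.5% of all genes were called higher and 31.0% lower. After 5-FU in Huh1, 16 were higher and 14 lower (25.9% and 29.1% of all genes). After DSF in Huh1, 4 were higher and 19 lower (26.4% and 26.3% of all genes), and after DSF in Huh7, 13 were higher and 8 lower (29.1% and 24.1% of all genes). A call is a Benjamini-Hochberg adjusted p under 0.05 in a limma fit of all 18 arrays, adjusted over all probes tested. The median log2 difference of the members from control was 0.44 after 5-FU in Huh7, 0.01 after 5-FU in Huh1, -0.15 after DSF in Huh1 and 0.07 after DSF in Huh7, beside -0.01, -0.03, -0.02 and 0.04 over all genes.

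Array by array the picture was much the same. After 5-FU in Huh7 all 3 arrays lay above all 3 control arrays for 35 members and below them for 3 (36.6% and 35.3% of all genes), and after 5-FU in Huh1 for 15 and 16 (29% and 33.6% of all genes). After DSF in Huh1 the groups lay apart above for 7 members and below for 25 (32.6% and 35.3% of all genes), and after DSF in Huh7 for 19 and 9 (37% and 32.4% of all genes). The arrays of the compared groups overlapped for the other 6, 13, 12 and 16 members in that order.

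**Figure D1:**
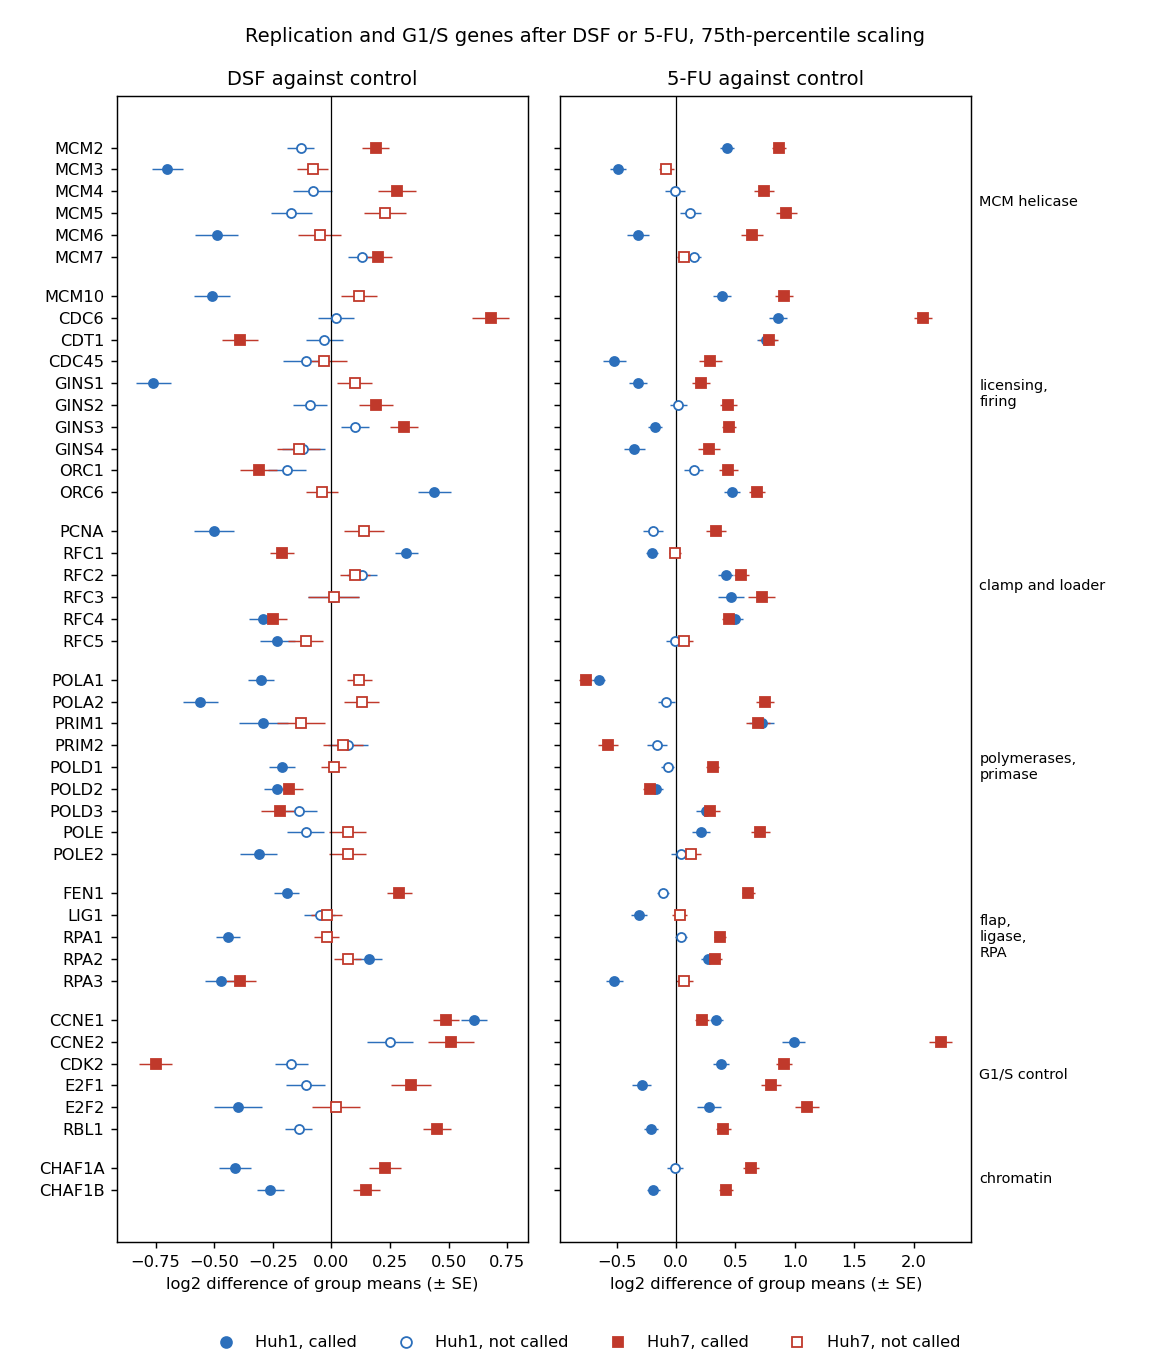
The log2 difference from control on the 75th-percentile scale (x axis, bars ± SE) of the 44 members (rows, grouped by role) after DSF (left) and 5-FU (right), with Huh1 as circles, Huh7 as squares and filled symbols for calls at an adjusted p under 0.05. After 5-FU in Huh7 34 squares are filled to the right of 0 and 3 to the left, while on the spike-in scale 43 are called higher.

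These counts depended on the scale. When arrays were scaled on the spike-in probes, the median of all genes rose by 0.80 after 5-FU in Huh1 and by 0.98 in Huh7, and 42 and 43 members were then called higher and 0 lower. The DSF split became 3 higher and 3 lower for Huh1 cells, and 1 and 6 for Huh7 cells, with all genes at 0.11 and -0.14. With quantile scaling the DSF split in Huh7 was 8 higher and 10 lower. With median scaling, where the median of all genes in Huh1 after DSF was -0.19, it was 2 higher and 31 lower in Huh1. Here and below, counts under other scalings or fits come without the share of all genes called there, unless it is stated. Such counts are not read as a result about the members. The 75th-percentile and spike-in scales each subtract a constant per array, which shifts all genes of a comparison alike. The distance of the members' median from the median of all genes is therefore the same on both, apart from rounding, and is no check of the scale. On the 75th-percentile scale it was 0.45 after 5-FU in Huh7, 0.04 after 5-FU in Huh1, -0.13 after DSF in Huh1 and 0.03 after DSF in Huh7. Below, higher and lower refer to the 75th-percentile scale, and a member whose named difference changed sign on the spike-in scale is given with that value.

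**Figure D2:**
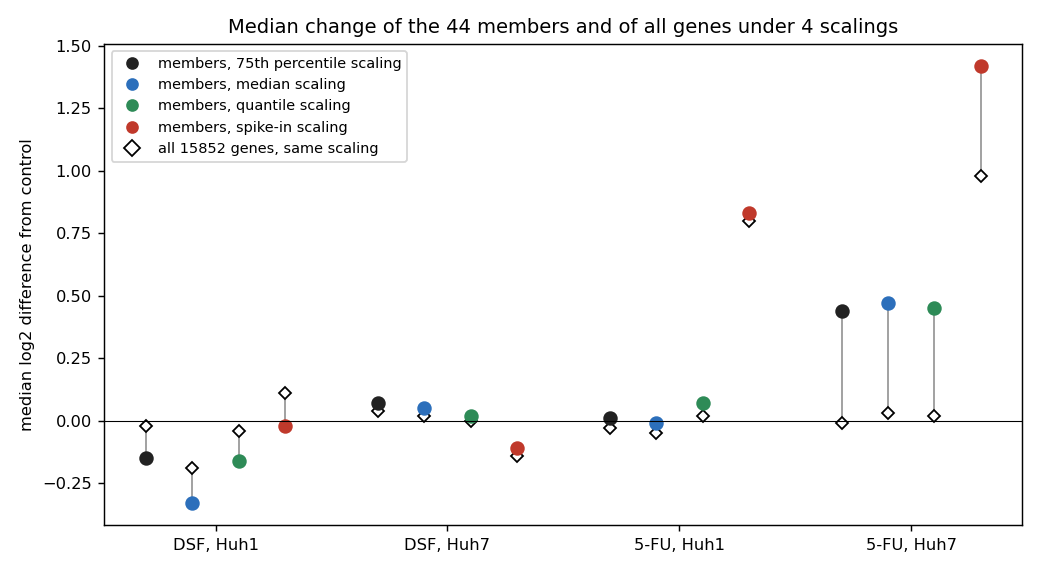
Median log2 difference from control (y axis) of the 44 members (filled circles) and of all 15852 genes (open diamonds) for each drug and line (x axis), under 4 ways of scaling the arrays. The spike-in scale lifts both medians after 5-FU, to 0.83 and 0.80 in Huh1 and to 1.42 and 0.98 in Huh7. Scaling by a constant per array shifts all genes alike, so the distance between the medians is fixed except with quantile scaling.

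Among the licensing and firing factors CDC6 had the largest rises after 5-FU in both lines and after DSF in Huh7. CDC6, the loader that brings MCM to the origin, read -1.83, -2.07 and -2.09 on the 3 Huh1 control arrays, -2.01, -1.90 and -2.01 after DSF and -1.27, -1.05 and -1.1 after 5-FU. In Huh7 it read -2.50, -2.46 and -2.55 in the control, -1.81, -1.87 and -1.81 after DSF and -0.37, -0.40 and -0.52 after 5-FU. All 5-FU arrays lay above all others of their line, and the DSF arrays lay above the control in Huh7 but overlapped it in Huh1. The rise after 5-FU was 0.86 ± 0.078 in Huh1 and 2.08 ± 0.078 in Huh7, the latter 4.22-fold (limma adjusted p = 1.08e-06 and 1.23e-10). After DSF it rose by 0.68 ± 0.078 in Huh7, with 0.02 ± 0.078 in Huh1 (limma adjusted p = 9.44e-06 and 0.841). CDT1, which works with CDC6, read 3.22, 3.13 and 3.05 in the Huh1 control, 3.13, 3.06 and 3.12 after DSF and 3.98, 3.85 and 3.85 after 5-FU. In Huh7 its control arrays read 3.92, 3.91 and 3.94, its DSF arrays 3.64, 3.48 and 3.49 and its 5-FU arrays 4.64, 4.88 and 4.58. CDT1 thus rose by a like amount after 5-FU in the lines, 0.76 and 0.78, and was called lower after DSF in Huh7 alone (-0.39 ± 0.078, limma adjusted p = 0.00106), with -0.03 in Huh1. Within the second slide, where Huh7 DSF rests on 1 array, the Huh7 difference was -0.29, and that array cannot show whether the fall holds apart from the slide.

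ORC6, a small subunit of the origin recognition complex, read 1.42, 1.44 and 1.45 in the Huh1 control, 1.87, 1.85 and 1.91 after DSF and 1.80, 1.97 and 1.94 after 5-FU. In Huh7 it read 1.81, 1.80 and 1.80 in the control, 1.88, 1.72 and 1.68 after DSF and 2.56, 2.54 and 2.36 after 5-FU. Every drug-treated Huh1 array was above the control, whereas in Huh7 only 5-FU separated from it. It rose by 0.44 after DSF in Huh1 and by 0.47 and 0.68 after 5-FU in Huh1 and Huh7 (limma adjusted p = 0.000124, 6.75e-05 and 1.0e-06). ORC1, the ATPase subunit, rose after 5-FU in Huh7 (0.44 ± 0.080) and fell after DSF there (-0.31 ± 0.080), with limma adjusted p of 0.000303 and 0.00633, and was called in neither comparison in Huh1.

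The MCM helicase subunits did not move together. After 5-FU in Huh7, MCM2, MCM4, MCM5 and MCM6 rose by 0.64 to 0.93 and MCM3 and MCM7 were not called (-0.08 and 0.07). MCM2 read 3.29, 3.15 and 3.13 in the Huh1 control and 3.71, 3.57 and 3.58 after 5-FU, and in Huh7 3.72, 3.76 and 3.76 in the control and 4.67, 4.62 and 4.54 after 5-FU. It rose in both lines, by 0.43 and 0.87 (limma adjusted p = 3.41e-05 and 1.97e-08). Its DSF arrays at 3.04, 3.05 and 3.08 in Huh1 and 3.95, 3.92 and 3.95 in Huh7 lay below and above their controls, the latter a rise of 0.19 ± 0.058. With the slide as a block, where Huh7 DSF rests on 1 array, that rise was 0.20.

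MCM6 went in opposite directions after 5-FU. It read 3.77, 3.46 and 3.49 in the Huh1 control, 3.10, 3.07 and 3.08 after DSF and 3.36, 3.21 and 3.18 after 5-FU. In Huh7 it read 3.94, 3.95 and 3.97 in the control, 4.11, 3.77 and 3.81 after DSF and 4.58, 4.61 and 4.59 after 5-FU. In Huh1 both treated groups lay below the control, with differences of -0.49 for DSF and -0.32 for 5-FU, and in Huh7 only the 5-FU arrays lay apart, with a rise of 0.64 (limma adjusted p = 0.000587, 0.00968 and 3.65e-05). On the spike-in scale the 5-FU difference in Huh1 was 0.50. MCM3 was lower in Huh1 after either drug: its 3 control arrays read 5.91, 5.85 and 5.84, the DSF arrays 5.17, 5.14 and 5.19 and the 5-FU arrays 5.40, 5.35 and 5.39. In Huh7 it read 5.62, 5.60 and 5.63 in the control, 5.60, 5.48 and 5.53 after DSF and 5.50, 5.70 and 5.40 after 5-FU. The differences in Huh1 were -0.70 ± 0.066 and -0.49 ± 0.066 (limma adjusted p = 1.40e-06 and 3.62e-05), and the second was 0.34 on the spike-in scale, where the Huh7 difference was 0.90 (0.23 with quantile scaling). MCM7 was called once in the 4 comparisons, higher after DSF in Huh7 (0.20 ± 0.059, limma adjusted p = 0.0118), and within the second slide that call was lost (0.25, adjusted p = 0.174).

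Origin firing factors all rose after 5-FU in Huh7, 10 of 10 with the licensing factors included (32.5% of all genes). In Huh1, 4 of the 10 rose (MCM10, CDC6, CDT1 and ORC6) and 4 fell (CDC45, GINS1, GINS3 and GINS4), where 25.9% and 29.1% of all genes did. MCM10, a factor needed to start unwinding, read -0.07, -0.13 and -0.04 in the Huh1 control, -0.65, -0.64 and -0.48 after DSF and 0.43, 0.29 and 0.22 after 5-FU. Huh7 arrays of MCM10 read -0.64, -0.61 and -0.66 in the control, after DSF -0.36, -0.62 and -0.56 and after 5-FU 0.23, 0.24 and 0.34. The 5-FU arrays were the highest of each line, and in Huh1 the DSF arrays were the lowest. It rose by 0.39 and 0.91 after 5-FU and fell by 0.51 ± 0.077 after DSF in Huh1 (limma adjusted p = 0.000686, 1.80e-07 and 9.59e-05).

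CDC45 and the GINS proteins, which turn the loaded MCM ring into the moving helicase, split between the lines after 5-FU. CDC45 read 3.42, 3.26 and 3.27 in the Huh1 control and 2.98, 2.68 and 2.74 after 5-FU, and in Huh7 4.59, 4.59 and 4.59 in the control and 4.68, 5.05 and 4.93 after 5-FU. Groups were apart in both lines, with differences of -0.52 ± 0.096 for Huh1 and 0.29 ± 0.096 for Huh7 (limma adjusted p = 0.000507 and 0.0172). Its DSF arrays, 3.19, 3.19 and 3.23 in Huh1 and 4.68, 4.52 and 4.49 in Huh7, gave no call. GINS1 read 3.26, 3.26 and 3.19 in the Huh1 control, 2.50, 2.44 and 2.47 after DSF and 3.09, 2.84 and 2.81 after 5-FU. Huh7 arrays of GINS1 read 3.94, 3.87 and 3.96 in the control, after DSF 4.04, 4.0 and 4.02 and after 5-FU 4.02, 4.26 and 4.11. The DSF arrays of Huh1 were the lowest of all 18, and their difference of -0.76 ± 0.075 (limma adjusted p = 1.98e-06) was the most negative of the 44 members after DSF in that line. With 5-FU the differences were -0.32 for Huh1 and 0.21 for Huh7 (limma adjusted p = 0.00259 and 0.0297). GINS3 read 2.11, 2.18 and 2.17 in the Huh1 control, 2.26, 2.26 and 2.25 after DSF and 1.95, 1.99 and 1.99 after 5-FU. Huh7 arrays of GINS3 read 1.89, 1.95 and 1.90 in the control, after DSF 2.36, 2.17 and 2.15 and after 5-FU 2.30, 2.42 and 2.37. Its arrays were lowest after 5-FU in Huh1 (-0.18, limma adjusted p = 0.0243) and lowest in the control in Huh7, where 5-FU gave 0.45 and DSF 0.31 (limma adjusted p = 1.61e-05 and 0.000693).

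GINS4 read 2.23, 2.16 and 2.20 in the Huh1 control, 2.20, 2.00 and 2.03 after DSF and 1.87, 1.82 and 1.84 after 5-FU. Huh7 arrays of GINS4 read 3.18, 3.22 and 3.21 in the control, after DSF 3.19, 3.01 and 2.98 and after 5-FU 3.25, 3.60 and 3.61, so 5-FU arrays lay lowest in Huh1 and highest in Huh7. The differences were -0.35 and 0.28 (limma adjusted p = 0.00553 and 0.0154). GINS2 rose after both drugs in Huh7 (0.44 after 5-FU, 0.19 after DSF, limma adjusted p = 0.000143 and 0.0491) and was not called in Huh1. The DSF call of GINS2 was kept only when Huh1 control replicate 1, Huh1 5-FU replicate 1 or Huh7 DSF replicate 2 was the array left out, and was lost without any of the other 15 (log2 differences 0.12 to 0.21). On the spike-in scale the Huh1 5-FU differences of CDC45, GINS1, GINS3 and GINS4 were 0.31, 0.50, 0.65 and 0.47. Some of these calls rested on single arrays. The Huh7 5-FU call was lost for CDC45 without Huh7 5-FU replicate 2 or 3 (log2 differences 0.21 to 0.27), for GINS1 without Huh7 control replicate 1 or 2 or Huh7 5-FU replicate 2 (log2 differences 0.14 to 0.21) and for GINS4 without Huh7 5-FU replicate 2 or 3 (log2 differences 0.22 to 0.23). The Huh1 5-FU call of GINS3 was lost without Huh1 control replicate 2 or 3 or Huh1 5-FU replicate 1 or 2 (log2 differences -0.18 to -0.16).

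The primase and polymerase alpha complex, which lays the first stretch of each new strand, was split by subunit after 5-FU. PRIM1, the catalytic primase subunit, read 2.62, 2.50 and 2.47 in the Huh1 control and 3.41, 3.16 and 3.17 after 5-FU, and in Huh7 3.11, 3.10 and 3.16 in the control and 3.63, 3.86 and 3.96 after 5-FU. It rose by 0.72 and 0.69 with no overlap of groups (limma adjusted p = 6.02e-05 and 4.69e-05). POLA1, the catalytic subunit of polymerase alpha, read 0.88, 0.82 and 0.79 in the Huh1 control, 0.52, 0.56 and 0.51 after DSF and 0.20, 0.14 and 0.19 after 5-FU, and in the Huh7 control 0.42, 0.45 and 0.44, after DSF 0.63, 0.49 and 0.54 and after 5-FU -0.31, -0.25 and -0.39. The 5-FU arrays were the lowest of each line, with differences of -0.65 ± 0.055 and -0.76 ± 0.055 (limma adjusted p = 5.29e-07 and 4.12e-08), and on the spike-in scale the values were 0.17 and 0.23, far below the medians of all genes of 0.80 and 0.98. PRIM2, the large primase subunit, read 1.36, 1.37 and 1.48 in the Huh7 control and 0.68, 0.94 and 0.89 after 5-FU, and 1.28, 1.41 and 1.36 and 1.25, 1.19 and 1.12 in Huh1. It was lower in Huh7 (-0.57 ± 0.085, limma adjusted p = 4.60e-05, 0.41 on the spike-in scale) and not called in Huh1 (-0.16). Of its other probes, the second gave -0.57 after 5-FU in Huh7 and the third -0.11, which was not called. The DSF arrays of PRIM2 read 1.35, 1.40 and 1.49 and 1.62, 1.35 and 1.39 in Huh1 and Huh7 and were not called, while the third probe was called higher in Huh1 (0.30).

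POLA2, the accessory subunit of polymerase alpha, read 1.21, 1.09 and 1.05 in the Huh1 control, 0.54, 0.49 and 0.64 after DSF and 1.19, 0.97 and 0.93 after 5-FU, and in the Huh7 control 0.37, 0.38 and 0.40, after DSF 0.62, 0.48 and 0.44 and after 5-FU 1.14, 1.18 and 1.07. It fell after DSF in Huh1 (-0.56 ± 0.075, limma adjusted p = 3.60e-05) and rose after 5-FU in Huh7 (0.75 ± 0.075, limma adjusted p = 1.01e-06). POLA1 also fell after DSF in Huh1 (-0.30 ± 0.055, limma adjusted p = 0.000508), as did PRIM1, whose DSF arrays read 2.28, 2.22 and 2.23 in Huh1 and 3.22, 2.88 and 2.89 in Huh7. The PRIM1 difference of -0.29 (limma adjusted p = 0.0360) lost its call without Huh1 control replicate 1 or 2 or Huh1 DSF replicate 1, 2 or 3 (log2 differences -0.30 to -0.24).

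Among the replicative polymerases, POLE, the leading-strand catalytic subunit, and POLD3, an accessory subunit of polymerase delta, were higher after 5-FU in both lines, while POLD2 was lower in both. POLD3 read 1.12, 1.01 and 0.97 in the Huh1 control, 0.91, 0.82 and 0.94 after DSF and 1.33, 1.23 and 1.28 after 5-FU, and in the Huh7 control 2.01, 2.02 and 2.00, after DSF 1.95, 1.75 and 1.68 and after 5-FU 2.24, 2.45 and 2.21. The 5-FU arrays lay above the other arrays of their line, and in Huh7 the DSF arrays lay below the control. POLD2 read 2.30, 2.33 and 2.25 in the Huh1 control, 2.07, 2.03 and 2.09 after DSF and 2.24, 2.07 and 2.06 after 5-FU, and in the Huh7 control 1.60, 1.56 and 1.59, after DSF 1.46, 1.36 and 1.39 and after 5-FU 1.39, 1.33 and 1.39. All its treated arrays lay below their control. After 5-FU POLD2 differed by -0.17 and -0.22 (limma adjusted p = 0.0266 and 0.00486; 0.66 and 0.77 on the spike-in scale) while its DSF differences were -0.23 and -0.18 (limma, adjusted p = 0.00460 and 0.0182). Several of these small calls depended on single arrays. The 5-FU call in Huh1 was lost for POLD2 without Huh1 control replicate 1 or 2 or Huh1 5-FU replicate 2 or 3 (log2 differences -0.16 to -0.14) and for POLD3 without Huh1 control replicate 2 or 3 or Huh1 5-FU replicate 1 (log2 differences 0.22 to 0.24). The DSF call in Huh7 was lost for POLD2 without Huh7 control replicate 1 or 3 or Huh7 DSF replicate 2 or 3 (log2 differences -0.18 to -0.16) and for POLD3 without Huh7 control replicate 1, 2 or 3 or Huh7 DSF replicate 2 or 3 (log2 differences -0.22 to -0.16). POLE rose by 0.21 in Huh1 and 0.71 in Huh7 after 5-FU (limma adjusted p = 0.0418 and 2.56e-06), and the Huh1 call was lost without any of 9 single arrays, Huh1 control replicate 1 or 2, Huh1 5-FU replicate 2 or 3, Huh1 DSF replicate 1, Huh7 control replicate 1, 2 or 3 or Huh7 DSF replicate 2 (log2 differences 0.13 to 0.23). POLD1, the catalytic subunit of polymerase delta, rose after 5-FU in Huh7 (0.31, limma adjusted p = 0.000169) and fell after DSF in Huh1 (-0.21, limma adjusted p = 0.00537). POLE2, an accessory subunit of polymerase epsilon, fell after DSF in Huh1 (-0.31, limma adjusted p = 0.00524) and was called in no other drug comparison with control.

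Of the 6 clamp and clamp loader genes, 4 rose and 0 fell after 5-FU in Huh7 (32.5% and 31.0% of all genes) and 3 rose and 1 fell in Huh1 (25.9% and 29.1%). After DSF 1 rose and 3 fell in Huh1 (26.4% and 26.3% of all genes). In Huh7 DSF gave 0 rises and 2 falls (29.1% and 24.1%). RFC4, a loader subunit, read 4.12, 4.14 and 4.08 in the Huh1 control, 3.86, 3.81 and 3.81 after DSF and 4.65, 4.62 and 4.57 after 5-FU, and in the Huh7 control 4.22, 4.18 and 4.26, after DSF 4.12, 3.94 and 3.86 and after 5-FU 4.66, 4.65 and 4.71. In both lines 5-FU arrays were the highest and DSF arrays the lowest. The differences were 0.50 and 0.45 after 5-FU and -0.29 and -0.25 after DSF (limma adjusted p = 1.50e-05, 2.07e-05, 0.00167 and 0.00458), and within the second slide the Huh7 DSF difference was -0.10 (adjusted p = 0.437). RFC2 read 2.08, 2.05 and 1.97 in the Huh1 control and 2.47, 2.45 and 2.44 after 5-FU, and in Huh7 1.43, 1.49 and 1.60 in the control and 2.02, 2.17 and 1.97 after 5-FU, with DSF at 2.15, 2.16 and 2.20 and 1.66, 1.56 and 1.60. RFC3 read 1.31, 1.22 and 1.17 in the Huh1 control and 1.75, 1.66 and 1.68 after 5-FU, and in Huh7 0.67, 0.69 and 0.73 in the control and 1.61, 1.39 and 1.26 after 5-FU, with DSF at 1.26, 1.22 and 1.26 and 1.0, 0.52 and 0.59. These 2 loader subunits were called after 5-FU in both lines, with rises of 0.42 and 0.55 for RFC2 and of 0.46 and 0.72 for RFC3 (limma adjusted p = 8.43e-05, 4.09e-06, 0.00299 and 5.69e-05). After DSF neither was called, although the Huh1 arrays of RFC2 lay above the control by 0.13 (limma adjusted p = 0.1), which was called with quantile scaling (0.15). Another RFC3 probe was called higher after DSF, at 0.32 in Huh1 and 0.22 in Huh7.

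RFC1, the large loader subunit, was the 1 member that rose after DSF in Huh1 and fell in Huh7, a pattern of 3.84% of all genes. It read 1.28, 1.30 and 1.28 in the Huh1 control, 1.58, 1.62 and 1.61 after DSF and 1.16, 1.06 and 1.04 after 5-FU, and in the Huh7 control 2.22, 2.25 and 2.24, after DSF 2.10, 1.98 and 2.00 and after 5-FU 2.25, 2.20 and 2.21. DSF arrays were the highest of Huh1 and the lowest of Huh7, with differences of 0.32 ± 0.050 and -0.21 ± 0.050 (limma adjusted p = 0.000145 and 0.00327). The Huh7 call was lost within the second slide (-0.14, adjusted p = 0.269). After 5-FU it fell by 0.20 in Huh1 (limma adjusted p = 0.00431, 0.62 on the spike-in scale), and was -0.01 in Huh7 (0.97 on the spike-in scale). PCNA, the sliding clamp, fell after DSF in Huh1 (-0.50 ± 0.085, limma adjusted p = 0.000262) and rose after 5-FU in Huh7 (0.34 ± 0.085, limma adjusted p = 0.00355). RFC5 fell after DSF in Huh1 (-0.23, limma adjusted p = 0.0226, not called without Huh1 control replicate 1 or 2 or Huh1 DSF replicate 2 or 3, at -0.23 to -0.21) and was not called after 5-FU in either line.

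RPA3, the smallest subunit of the single-strand binding complex, was lower after DSF in both lines. It read 4.82, 4.90 and 4.86 in the Huh1 control, 4.39, 4.33 and 4.46 after DSF and 4.43, 4.30 and 4.30 after 5-FU, and in the Huh7 control 5.48, 5.46 and 5.49, after DSF 5.13, 5.08 and 5.06 and after 5-FU 5.38, 5.64 and 5.61. DSF arrays lay below every control array of their line, with differences of -0.47 ± 0.070 and -0.39 ± 0.070 (limma adjusted p = 8.70e-05 and 0.000457), and it was lower after 5-FU in Huh1 as well (-0.52, limma adjusted p = 3.49e-05, 0.31 on the spike-in scale). RPA2 read 2.57, 2.61 and 2.59 in the Huh1 control, 2.75, 2.74 and 2.76 after DSF and 2.84, 2.86 and 2.87 after 5-FU, and in the Huh7 control 2.98, 3.01 and 3.00, after DSF 3.16, 3.03 and 3.01 and after 5-FU 3.22, 3.42 and 3.34. It was highest after 5-FU in both lines, with rises of 0.27 and 0.33 (limma adjusted p = 0.00137 and 0.000176). Its rise of 0.16 after DSF in Huh1 (limma adjusted p = 0.0334) lost its call without Huh1 control replicate 1, 2 or 3 or Huh1 DSF replicate 1, 2 or 3 (log2 differences 0.15 to 0.17) and was -0.01 with median scaling. RPA1, the largest subunit, fell after DSF in Huh1 (-0.44 ± 0.052, limma adjusted p = 1.03e-05) and rose after 5-FU in Huh7 (0.37 ± 0.052, limma adjusted p = 2.75e-05). Another RPA1 probe was called lower after DSF in both lines, at -0.48 in Huh1 and -0.42 in Huh7.

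FEN1, the nuclease that trims flaps on the lagging strand, read 1.84, 1.86 and 1.84 in the Huh1 control, 1.70, 1.64 and 1.65 after DSF and 1.71, 1.76 and 1.76 after 5-FU, and in the Huh7 control 1.48, 1.46 and 1.57, after DSF 1.83, 1.75 and 1.78 and after 5-FU 2.10, 2.19 and 2.04. Treated arrays lay below the control in Huh1 and above it in Huh7. DSF gave -0.19 ± 0.053 and 0.29 ± 0.053 (limma adjusted p = 0.0103 and 0.000504), the second 0.33 with an adjusted p of 0.0682 within the second slide. With 5-FU it rose by 0.61 ± 0.053 in Huh7 (limma adjusted p = 2.33e-07), and the Huh1 difference of -0.11 was not called (0.72 on the spike-in scale). LIG1, which seals the trimmed ends, was lower after 5-FU in Huh1 (-0.31 ± 0.067, limma adjusted p = 0.00150, 0.51 on the spike-in scale) and was not called in the other drug comparisons with control.

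**Figure D3:**
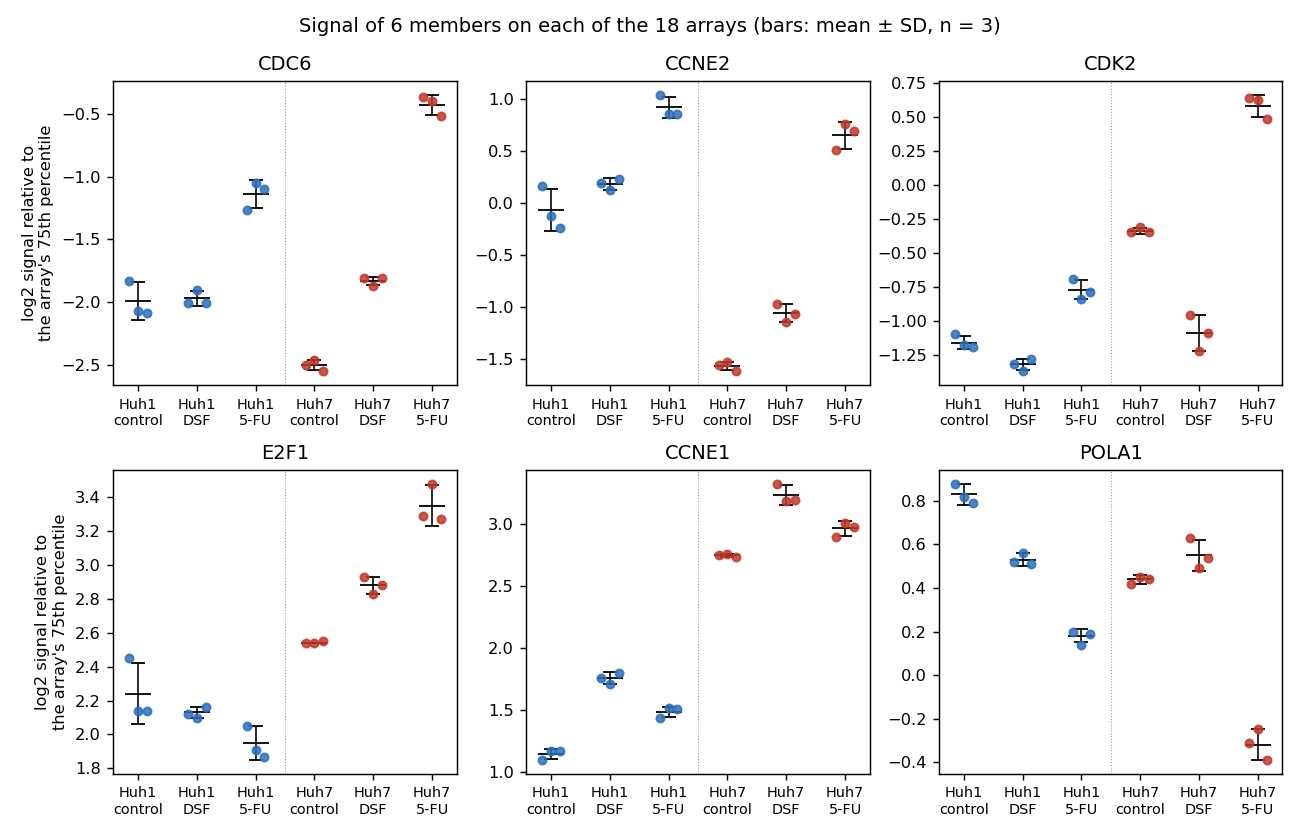
Log2 signal relative to the array's 75th percentile (y axis) of 6 members on each of the 18 arrays, 3 per group (points), with the mean and SD of the group. CDC6, CCNE2 and CDK2 are highest after 5-FU in both lines, E2F1 is lowest after 5-FU in Huh1 and highest in Huh7, CCNE1 is highest after DSF, and POLA1 is lowest after 5-FU, although the POLA1 differences and that of E2F1 in Huh1 are above 0 on the spike-in scale.

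Of the 6 genes of G1/S control, all 6 rose after 5-FU in Huh7 (32.5% of all genes). CCNE2, one of the cyclin E genes that activate CDK2, read 0.16, -0.13 and -0.24 in the Huh1 control, 0.19, 0.12 and 0.23 after DSF and 1.04, 0.86 and 0.86 after 5-FU. In Huh7 it read -1.56, -1.53 and -1.62 in the control, -0.97, -1.15 and -1.07 after DSF and 0.51, 0.76 and 0.69 after 5-FU. The 5-FU arrays stood above all others of their line, and DSF arrays above the control in Huh7. The rise after 5-FU was 0.99 ± 0.097 in Huh1 and 2.23 ± 0.097 in Huh7, or 1.99-fold and 4.68-fold, the latter the largest of any member in these comparisons (limma adjusted p = 2.01e-06 and 3.98e-10). DSF raised it by 0.51 ± 0.097 in Huh7 (limma adjusted p = 0.000678), and the Huh1 difference was 0.25 (limma adjusted p = 0.0501). Another CCNE2 probe was called higher after DSF in both lines, at 0.46 in Huh1 and 0.68 in Huh7.

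By the brightest probe of each gene, CCNE1, the other cyclin E gene, was the 1 member higher after DSF in both lines, as were 11.7% of all genes. It read 1.1, 1.17 and 1.17 in the Huh1 control, 1.76, 1.71 and 1.80 after DSF and 1.44, 1.52 and 1.51 after 5-FU, and in the Huh7 control 2.75, 2.76 and 2.74, after DSF 3.33, 3.19 and 3.20 and after 5-FU 2.90, 3.01 and 2.98. In each line the order was control, 5-FU and DSF with no overlap between groups. DSF raised it by 0.61 ± 0.056 and 0.49 ± 0.056, and 5-FU by 0.34 and 0.22 (limma adjusted p = 1.04e-06, 8.10e-06, 0.000173 and 0.00386). Another probe of CCNE2 and another of RFC3 were also called higher after DSF in both lines.

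CDK2 is the kinase that cyclin E activates and was also followed by RT-PCR. It read -1.1, -1.18 and -1.19 in the Huh1 control, -1.32, -1.37 and -1.28 after DSF and -0.69, -0.84 and -0.79 after 5-FU. In Huh7 it read -0.35, -0.31 and -0.35 in the control, -0.96, -1.22 and -1.09 after DSF and 0.64, 0.62 and 0.48 after 5-FU. In both lines the DSF arrays were the lowest and the 5-FU arrays the highest. The 5-FU rise was 0.38 ± 0.070 and 0.91 ± 0.070 (limma adjusted p = 0.000407 and 6.68e-08). The DSF difference was -0.75 ± 0.070 in Huh7 and the Huh1 difference of -0.17 was not called (limma adjusted p = 1.23e-06 and 0.0672).

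E2F1, an activator of S-phase genes, read 2.45, 2.14 and 2.14 in the Huh1 control, 2.12, 2.10 and 2.16 after DSF and 2.05, 1.91 and 1.87 after 5-FU, and in the Huh7 control 2.54, 2.54 and 2.55, after DSF 2.93, 2.83 and 2.88 and after 5-FU 3.29, 3.48 and 3.27. After 5-FU it was lower in Huh1 (-0.29 ± 0.084) and higher in Huh7 (0.80 ± 0.084) than the control (limma adjusted p = 0.00999 and 1.59e-06), and the Huh1 value was 0.53 on the spike-in scale. Its DSF arrays overlapped the control in Huh1 and lay above it in Huh7 (0.34, limma adjusted p = 0.00479). E2F2, a related activator, read 2.97, 2.63 and 2.61 in the Huh1 control, 2.35, 2.34 and 2.32 after DSF and 3.11, 3.00 and 2.94 after 5-FU, and in the Huh7 control 2.85, 2.86 and 2.91, after DSF 2.98, 2.86 and 2.84 and after 5-FU 3.82, 4.19 and 3.91. Its first Huh1 control array lay apart from the other two. It rose by 1.1 after 5-FU in Huh7 (limma adjusted p = 4.48e-07) and fell by 0.40 after DSF in Huh1 (limma adjusted p = 0.00515). The rise of 0.28 after 5-FU in Huh1 (limma adjusted p = 0.0330) lost its call without Huh1 control replicate 2 or 3 or Huh1 5-FU replicate 1 or 2 (log2 differences 0.22 to 0.29).

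RBL1, a pocket protein that restrains E2F, read -0.82, -0.98 and -0.98 in the Huh1 control, -1.04, -1.03 and -1.11 after DSF and -1.05, -1.17 and -1.18 after 5-FU, and in the Huh7 control -1.66, -1.67 and -1.70, after DSF -1.20, -1.22 and -1.27 and after 5-FU -1.24, -1.25 and -1.33. Treated arrays were lower than the control in Huh1 and higher in Huh7. It fell by 0.21 after 5-FU in Huh1 (0.62 on the spike-in scale) and rose by 0.40 after 5-FU and 0.45 after DSF in Huh7 (limma adjusted p = 0.00925, 3.95e-05 and 3.17e-05).

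The chromatin assembly subunits, which place histones behind the fork, were by their brightest probes called lower in Huh1 and higher in Huh7 after DSF. CHAF1A read 3.81, 3.75 and 3.75 in the Huh1 control, 3.36, 3.41 and 3.32 after DSF and 3.87, 3.70 and 3.73 after 5-FU, and in the Huh7 control 2.71, 2.75 and 2.77, after DSF 3.04, 2.91 and 2.97 and after 5-FU 3.46, 3.44 and 3.23. CHAF1B read 2.15, 2.07 and 1.99 in the Huh1 control, 1.82, 1.80 and 1.80 after DSF and 1.97, 1.84 and 1.84 after 5-FU, and in the Huh7 control 2.87, 2.87 and 2.89, after DSF 3.06, 3.02 and 3.01 and after 5-FU 3.33, 3.34 and 3.24. Within each line, the DSF arrays of Huh1 were the lowest for both genes and the 5-FU arrays of Huh7 the highest. DSF changed CHAF1A by -0.41 ± 0.068 and 0.23 ± 0.068 and CHAF1B by -0.26 ± 0.056 and 0.15 ± 0.056 in Huh1 and Huh7 (limma adjusted p = 0.000220, 0.0128, 0.00165 and 0.0396). Another CHAF1A probe was called lower after DSF in Huh1 (-0.49) and was not called in Huh7 (0.08). With 5-FU in Huh7 they rose by 0.63 and 0.42 (limma adjusted p = 1.91e-06 and 1.69e-05), and in Huh1 CHAF1B was lower, at -0.19 (limma adjusted p = 0.0142, 0.64 on the spike-in scale) while CHAF1A was not called (-0.01, 0.82 on the spike-in scale). The CHAF1B calls were the weakest of these: after DSF in Huh7 the call was lost without Huh1 DSF replicate 1, 2 or 3, Huh7 control replicate 1, 2 or 3 or Huh7 DSF replicate 1, 2 or 3 (log2 differences 0.14 to 0.16), and it was -0.02 on the spike-in scale. After 5-FU in Huh1 it was lost without Huh1 control replicate 1 or Huh1 5-FU replicate 2 or 3 (log2 differences -0.17 to -0.14).

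Counted over the lines by the brightest probe of each gene, 16 members were higher after 5-FU in both (16.0% of all genes) and POLA1 and POLD2 were lower in both (17.3%). Another 8 members, MCM6, CDC45, GINS1, GINS3, GINS4, E2F1, RBL1 and CHAF1B, were lower in Huh1 and higher in Huh7 (3.99%), 0 were higher in Huh1 and lower in Huh7 (2.63%), and MCM7, RFC5 and POLE2 were called in neither line. After DSF, CCNE1 was higher in both lines, RFC4, POLD2 and RPA3 were lower in both (10.4% of all genes), and FEN1, CHAF1A and CHAF1B were lower in Huh1 and higher in Huh7 (4.98%). The 8 members not called after DSF in either line were MCM5, CDC45, GINS4, RFC2, RFC3, PRIM2, POLE and LIG1. Other probes were called higher after DSF for 4 of these 8. They were RFC3 in Huh1 and Huh7 (0.32 and 0.22), PRIM2 and POLE in Huh1 (0.30 and 0.35) and MCM5 in Huh7 (0.29). Another CCNE2 probe was called higher after DSF in both lines, and another RPA1 probe was called lower in both. Another CHAF1A probe was not called after DSF in Huh7 (0.08).

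The difference between the lines was tested as an interaction term. For 5-FU, 27 members had a more positive change in Huh7 than in Huh1 and PRIM2 alone a more negative one, beside 23.7% and 19.9% of all genes, with a median difference of 0.42 over the members and 0.02 over all genes. The largest were CCNE2 (1.23 ± 0.137), CDC6 (1.22 ± 0.110) and E2F1 (1.1 ± 0.119), with limma adjusted p of 1.24e-05, 2.12e-06 and 9.92e-06. For CDT1 the difference was 0.02 ± 0.110, and for PRIM1 -0.02 ± 0.146, neither called. PRIM2 stood at -0.41 by its brightest probe and at -0.44 and -0.02 by its other probes, the last not called. On the spike-in scale 24 were more positive and 0 more negative, with all genes at 0.18. For DSF, 21 members had a more positive change in Huh7 and 4, CDT1, ORC6, RFC1 and CDK2, a more negative one (24.3% and 21.9% of all genes), with medians of 0.21 and 0.03. The largest were GINS1 (0.86 ± 0.106), POLA2 (0.69 ± 0.107) and CDC6 (0.65 ± 0.110) on the positive side and CDK2 (-0.59 ± 0.098) on the negative side (limma adjusted p = 2.76e-05, 0.000174, 0.000357 and 0.000344). The DSF counts depended on the scale: they were 14 and 6 with quantile scaling, and 1 and 4 on the spike-in scale, where the median of all genes was -0.28 and that of the members -0.09. The DSF line difference was lost for CDT1 without Huh1 control replicate 3 (log2 difference -0.32), and for E2F2, at 0.42, without Huh1 control replicate 1, Huh1 DSF replicate 1, 2 or 3, Huh7 control replicate 1 or 2 or Huh7 DSF replicate 1 (log2 differences 0.30 to 0.42). With the slide as a block, Huh7 DSF rests on 1 array, so only sizes are given. The DSF line differences were then -0.25 for CDT1, 0.50 for E2F2, 0.15 for POLD1 and 0.33 for GINS3.

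**Figure D4:**
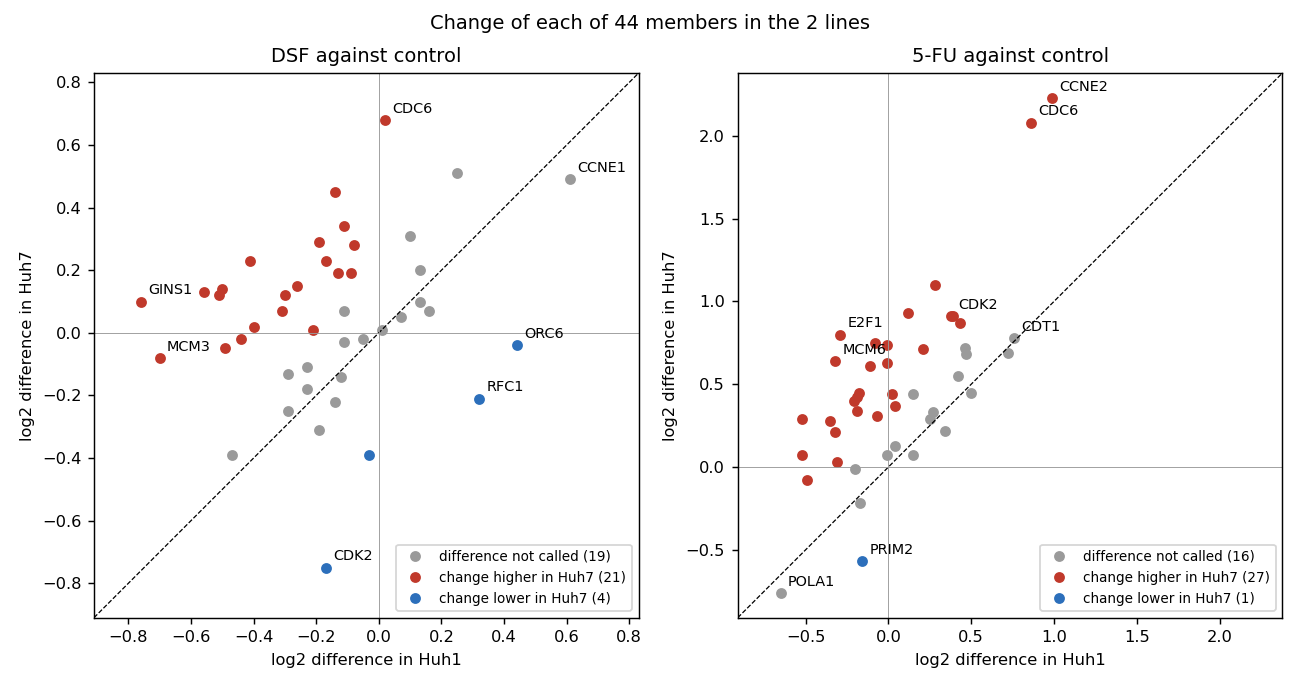
The log2 difference from control in Huh1 (x axis) against that in Huh7 (y axis) for each of the 44 members after DSF (left) and 5-FU (right), coloured by the interaction test on the 75th-percentile scale, with equality as a dashed line. After 5-FU 27 members lie above the line with a called difference and PRIM2 below it, and after DSF 21 lie above and 4 below, although on the spike-in scale the DSF counts are 1 and 4.

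Because the last 2 Huh7 DSF arrays were on a slide of their own, the Huh7 DSF comparison was also made within the second slide, where DSF had 1 array. There 7 members were higher and 1 lower, with 16.2% and 11.1% of all genes called. With the slide as a block in the full fit, the members' median was 0.16. That fit rests on the same 1 DSF array, as slide 3 holds no other group, and its differences equal those within the second slide. With 1 array, only sizes are given for the block. They were -0.29 for CDT1, -0.25 for ORC1, -0.14 for RFC1, -0.10 for RFC4, -0.12 for POLD2 and -0.06 for POLD3. MCM5 stood at 0.40 and MCM10 at 0.27. The differences of MCM2 and CHAF1B were 0.20 and 0.19 with the block, and 0.19 and 0.15 without it. In the main fit the call of CHAF1B was lost without any 1 of the Huh1 DSF, Huh7 control and Huh7 DSF arrays (0.14 to 0.16). Within the first slide, which holds 2 Huh1 DSF arrays, 3 members were higher and 16 lower after DSF.

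Set directly against each other, DSF and 5-FU left most members lower after DSF. In Huh7 32 members were lower after DSF than after 5-FU and 3 higher, with 30.7% and 34.5% of all genes, and in Huh1 24 were lower and 8 higher, with 25.3% and 30.5%. The medians were -0.42 and -0.22, beside 0.04 and 0.05 over all genes. The DSF arrays lay below all 5-FU arrays for 30 members in Huh7 and 29 in Huh1 (31.7% and 31.5% of all genes) and above them for 3 and 9 (35.6% and 38.4%). In both lines, 20 members were lower (15.4% of all genes), and POLA1, PRIM2 and CCNE1 were higher (18%), by the brightest probe of each gene. The third PRIM2 probe was not called in Huh7 (0.17). Other probes of RFC3, POLE and RPA1, which are among the 20, were not called in Huh1 (-0.10, -0.19 and -0.23). The widest gaps in Huh7 were CCNE2 (-1.71 ± 0.097), CDK2 (-1.67 ± 0.070) and CDC6 (-1.40 ± 0.078), of 3.28-fold, 3.18-fold and 2.64-fold, and in Huh1 PRIM1 (-1.0 ± 0.103) and MCM10 (-0.90 ± 0.077), with limma adjusted p of 4.41e-09, 2.85e-10, 3.80e-09, 2.80e-06 and 4.86e-07. POLA1 was higher after DSF, at 0.35 ± 0.055 for Huh1 and 0.87 ± 0.055 for Huh7 (limma adjusted p = 0.000107 and 1.13e-08). With median scaling the Huh1 split was 2 higher and 30 lower. On the spike-in scale 42 and 43 members were lower and 0 higher, with all genes at -0.65 and -1.12.

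Without drug, most members differed between the control arrays of the lines but in no single direction. All Huh1 control arrays lay on the first slide and all Huh7 control arrays on the second, so line and slide cannot be told apart in this comparison. In the Huh7 control 20 members were higher and 18 lower than in the Huh1 control, with 39.3% and 38.6% of all genes, and the arrays lay apart for 22 members above and 18 below (42.2% and 42.4% of all genes). CCNE1 was 3.03-fold higher in Huh7 (1.60 ± 0.056) and CCNE2 2.83-fold lower (-1.50 ± 0.097), with limma adjusted p of 2.81e-12 and 2.88e-09. CDC45, GINS2 and GINS4 were higher in Huh7 (1.27, 1.01 and 1.01), and POLE2 and CHAF1A lower (-1.25 and -1.03), all 5 with limma adjusted p under 0.05. The median difference was 0.10 over the members and -0.01 over all genes.

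Genes next to this set were read from lists of related function, to be set against the 32.5% of all genes called higher and 31.0% lower after 5-FU in Huh7 and the 25.9% and 29.1% in Huh1. Of 24 other fork and chromatin assembly genes, 16 rose and TOP2A fell after 5-FU in Huh7 (66.7% and 4.17%), and 10 rose and 3 fell in Huh1 (41.7% and 12.5%), with medians of 0.50 and 0.16. With spike-in scaling 24 and 23 of them were higher after 5-FU in Huh7 and Huh1 and 0 lower. CLSPN, which links the fork to the checkpoint kinase, rose by 1.18 ± 0.083 in Huh7 and by 0.38 ± 0.083 in Huh1 (limma adjusted p = 3.14e-08 and 0.00192), and RNASEH2A, a subunit of the enzyme that removes ribonucleotides from DNA, by 1.08 ± 0.079 and 0.58 ± 0.079 (limma adjusted p = 4.42e-08 and 3.60e-05). DSCC1, of an alternative clamp loader, rose by 0.94 ± 0.061 and 0.35 ± 0.061 (limma adjusted p = 1.39e-08 and 0.000259), and TIPIN, of the fork protection complex, rose in Huh7 by 0.78 ± 0.098 after 5-FU and by 0.73 ± 0.098 after DSF (limma adjusted p = 9.64e-06 and 3.53e-05). In Huh1 TIPIN rose by 0.34 ± 0.098 after 5-FU (limma adjusted p = 0.0108, not called without Huh1 5-FU replicate 2 or 3, at 0.28) and was not called after DSF. Of 16 other licensing and firing genes, 9 rose and 3 fell after 5-FU in Huh7 (56.2% and 18.8%), and 4 rose and 6 fell in Huh1 (25% and 37.5%, near the shares of all genes). DONSON rose in both (0.99 ± 0.067 and 0.38 ± 0.067, limma adjusted p = 2.17e-08 and 0.000304), MCM8 rose by 0.67 ± 0.051 in Huh7 (limma adjusted p = 6.91e-08), and DBF4B, a partner of the CDC7 kinase, fell by 1.30 ± 0.139 there (limma adjusted p = 1.88e-06), which on the spike-in scale was -0.32 and not called. In Huh1 DBF4B was -0.43 ± 0.139 after 5-FU (limma adjusted p = 0.0187, 0.39 on the spike-in scale, and not called without Huh1 control replicate 3 or Huh1 5-FU replicate 1, at -0.31 to -0.30). After DSF it rose in Huh1 (0.55 ± 0.139) and fell in Huh7 (-1.05 ± 0.139), with limma adjusted p of 0.00494 and 3.36e-05. GMNN, the inhibitor of CDT1, rose in Huh7 and fell in Huh1 (0.54 ± 0.077 and -0.26 ± 0.077, limma adjusted p = 3.29e-05 and 0.0135), and the Huh1 value was 0.57 on the spike-in scale and not called without Huh1 control replicate 1 (-0.22).

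Of 14 genes that supply nucleotides, 9 rose and 3 fell after 5-FU in Huh7 (64.3% and 21.4%), and 3 rose and CAD fell in Huh1 (21.4% and 7.14%, both below the shares of all genes). RRM2, a subunit of ribonucleotide reductase, rose by 1.16 ± 0.096 in Huh7 and 0.29 ± 0.096 in Huh1, and CTPS1, which makes CTP, by 1.32 ± 0.107 and 0.29 ± 0.107 (limma adjusted p = 1.45e-07, 0.0241, 1.22e-07 and 0.0358). The Huh1 calls were lost for RRM2 without Huh1 control replicate 2 or 3 or Huh1 5-FU replicate 1 (0.24), and for CTPS1 without Huh1 control replicate 2 or 3 or Huh1 5-FU replicate 2 or 3 (0.27 to 0.28). CAD, which starts pyrimidine synthesis, fell in Huh1 after DSF (-0.71 ± 0.084, limma adjusted p = 1.08e-05) and after 5-FU (-0.62 ± 0.084, limma adjusted p = 3.27e-05, 0.20 on the spike-in scale) and rose after 5-FU in Huh7 (0.40 ± 0.084, limma adjusted p = 0.000965). UMPS, which completes UMP, fell after DSF in Huh1 (-0.25 ± 0.067) and rose in Huh7 (0.55 ± 0.067), with limma adjusted p of 0.00769 and 1.41e-05. Of 27 other G1/S control genes tested, 16 rose and 6 fell after 5-FU in Huh7 (59.3% and 22.2%), and 6 rose and 7 fell in Huh1 (22.2% and 25.9%, near the shares of all genes). After DSF 6 rose and 14 fell in Huh1 (22.2% and 51.9%, beside 26.4% and 26.3% of all genes). In Huh7 DSF gave 10 rises and 6 falls (37% and 22.2%, beside 29.1% and 24.1%). CDKN1A, the inhibitor of cyclin E with CDK2, rose after 5-FU in both lines (1.03 ± 0.108 and 1.27 ± 0.108), and after DSF rose in Huh1 (0.51 ± 0.108) and fell in Huh7 (-0.77 ± 0.108), with limma adjusted p of 3.69e-06, 1.94e-07, 0.00153 and 5.06e-05. CDKN2B, an inhibitor of the cyclin D kinases, rose after either drug in both lines, by 1.42 to 2.94. CDKN2C, of the same family, was lower after either drug in both lines, at -0.53 to -1.56, all 8 with limma adjusted p under 0.05. The CDKN2C value after 5-FU in Huh7 was 0.46 on the spike-in scale, and its call was lost without any of 8 single arrays, Huh1 DSF replicate 1, 2 or 3, Huh7 control replicate 1, 2 or 3, Huh7 5-FU replicate 1 or Huh7 DSF replicate 3 (-0.54 to -0.29). Its call after DSF in Huh7 was lost without Huh7 DSF replicate 2 (-0.60). CDKN2D, a relative, rose after DSF in Huh1 (1.49 ± 0.095) and fell in Huh7 (-0.41 ± 0.095), with limma adjusted p of 3.49e-08 and 0.00287. It also rose after 5-FU in Huh1 (0.32 ± 0.095, not called without Huh1 5-FU replicate 2 or 3, at 0.27 to 0.28) and fell in Huh7 (-0.38 ± 0.095, 0.61 on the spike-in scale), with limma adjusted p of 0.0133 and 0.00338.

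Mitosis genes, which come later in the cycle, had lower medians than the replication genes after 5-FU in both lines. Of 21 tested, 0 rose and 17 fell in Huh1 (25.9% and 29.1% of all genes). In Huh7 FOXM1 and AURKB rose and 10 fell (32.5% and 31.0% of all genes). The medians were -0.61 and -0.19, where the replication genes were at 0.01 and 0.44. At an unadjusted limma p under 0.05 the count of rises in Huh1 was also 0. Scaled on the spike-in probes, Huh1 had 8 higher and 5 lower and Huh7 had 18 and 0, with medians of 0.21 and 0.80 beside 0.83 and 1.42 for the replication genes. After DSF, TTK rose and 15 fell in Huh1 (26.4% and 26.3% of all genes), and 0 rose and 14 fell in Huh7 (29.1% and 24.1%). The medians were -0.33 and -0.25, beside -0.02 and 0.04 over all genes. At an unadjusted p under 0.05, 0 rose in Huh7 as well. PLK1, a mitotic kinase, fell after 5-FU in Huh1 (-1.90 ± 0.086) and Huh7 (-0.70 ± 0.086), as did KIF20A, a motor of cell division (-1.82 ± 0.083 and -0.95 ± 0.083), with limma adjusted p of 4.84e-09, 7.30e-06, 4.93e-09 and 2.52e-07. The mitotic cyclins CCNB1 and CCNB2 fell in Huh1 (-1.35 ± 0.075 and -1.39 ± 0.074) and in Huh7 (-0.33 ± 0.075 and -0.52 ± 0.074), with limma adjusted p of 1.98e-08, 1.60e-08, 0.00148 and 2.99e-05. With spike-in scaling the Huh7 values were 0.28 for PLK1, 0.04 for KIF20A, 0.65 for CCNB1 and 0.46 for CCNB2. The difference between this list and the replication genes was not tested. Of the 16 mitosis genes with a promoter entry, 3 held an E2F-type word (18.8%) and 13 a CCAAT word (81.2%).

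**Figure D5:**
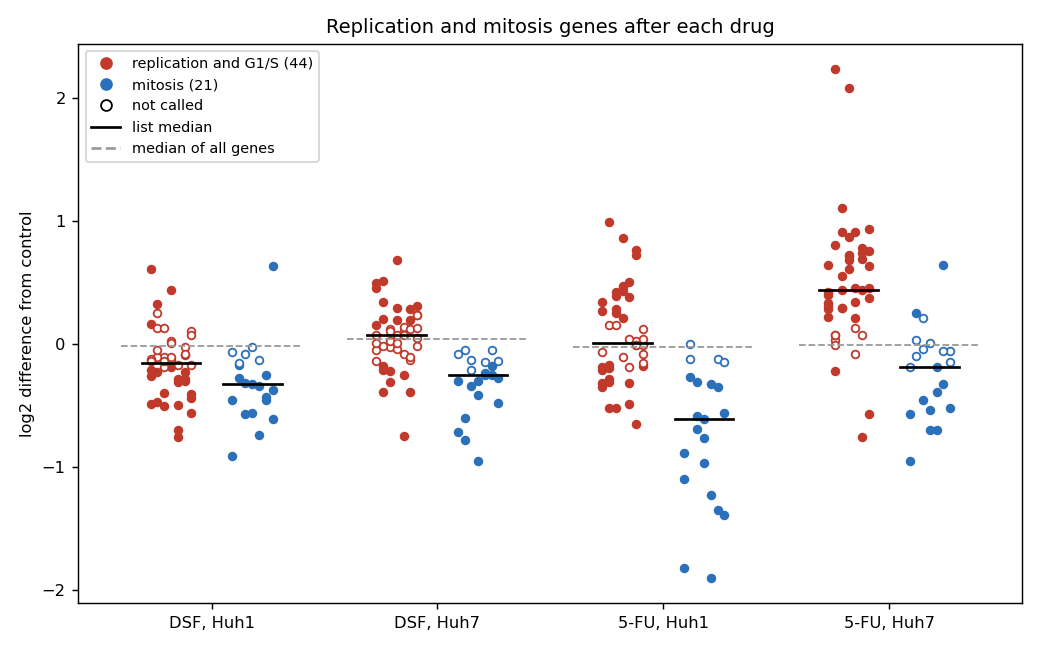
Log2 difference from control on the 75th-percentile scale (y axis) of the 44 replication and G1/S genes and the 21 mitosis genes for each drug and line (x axis), with filled points for calls, a bar at each list's median and a dashed line at the median of all genes. After 5-FU in Huh7 the replication genes have a median of 0.44 and the mitosis genes one of -0.19, and on the spike-in scale these are 1.42 and 0.80.

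Members with and without an E2F-type word in the promoter window differed little after 5-FU in Huh7. The median was 0.45 over the 19 with a word, 14 of them higher, and 0.42 over the 17 without, 13 of them higher (32.5% of all genes). In the difference between the lines after 5-FU, medians were 0.50 and 0.22, and after DSF 0.41 and 0.09. After DSF 13 of 19 and 6 of 17 were called more positive in Huh7 (24.3% of all genes), counts that depend on the scale as given above. MCM6, with 4 matches in the sequence shown above, was among those more positive in Huh7 after both drugs, and POLA1, with 1 match, fell after 5-FU in both lines. These are descriptions of the 36 members, which share arrays, and carry no test.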

How the data were processed

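RNA of sorted EpCAM+ cells was measured on 18 one-color Agilent SurePrint G3 arrays, 3 per group. The authors scanned the arrays with Feature Extraction 10.7.1.1 and normalized in GeneSpring, and the deposited scanner files hold spot intensity before normalization. From these, log2 of the processed signal minus the array's 75th percentile of it was computed, after control spots and outlier flags were left out. The deposited table of the whole series holds the authors' normalized intensities, and their log2 was used as an alternative.

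Of 42405 probes, 27099 were listed by RefSeq accession and 25736 of these had a symbol. Probes well above background on every array of at least 1 group were tested (29894), and 15852 genes were each represented by the brightest probe. limma 3.58.1 in R 4.3.3 was fitted to all 18 arrays with 1 mean per group (12 residual degrees of freedom), with Benjamini-Hochberg adjustment over all probes tested and a threshold of 0.05, and contrasts for each drug in each line, between drugs, between lines and for the difference of the drug effects. Tables were made with Python 3.11.15 and pandas 2.3.3. The fit was tested on simulated data. The number of arrays limits the precision.

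The members and lists were chosen with earlier results of these data known. Members are given array by array where they were called the same way in both lines with arrays apart, were called in opposite directions, or were among the 3 largest called rises or falls of a drug in a line, with CDK2 added because the study measured it. From each other list up to 4 genes with the largest changes called in both lines were named. Alternatives were other scalings, normexp background correction (on the median spot signal, as no mean signal column was given), filters, the mean of a gene's probes, the slide or the replicate number as a block, fits of the compared groups alone, and leaving out each array. The within-slide fits were chosen after seeing the data.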

Additional observations from a re-analysis of the deposited data

Results flagged for a closer look

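The effect of 5-FU differed between Huh7 and Huh1 by the interaction term of the limma fit for 28 of the 44 members, 27 with the more positive change in Huh7 and 1 with the more negative. Log2 differences, Huh7 minus Huh1, were 1.23 for CCNE2, 1.22 for CDC6, 1.1 for E2F1, 0.96 for MCM6, 0.84 for POLA2, 0.82 for E2F2, 0.81 for CDC45, 0.72 for FEN1, 0.64 for GINS4, 0.64 for CHAF1A, 0.62 for GINS3, 0.61 for RBL1, 0.61 for CHAF1B, 0.58 for RPA3, 0.53 for GINS1, 0.53 for CDK2, 0.51 for MCM10, 0.43 for MCM2, 0.41 for MCM3 and -0.41 for PRIM2.

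The effect of DSF differed between the lines by the same test for 25 members, 21 with the more positive change in Huh7 and 4 with the more negative. Log2 differences were 0.86 for GINS1, 0.69 for POLA2, 0.65 for CDC6, 0.64 for CHAF1A, 0.63 for MCM10, 0.62 for MCM3, 0.58 for RBL1, 0.47 for FEN1, 0.45 for E2F1, 0.44 for MCM6, 0.42 for E2F2, 0.41 for POLA1, 0.41 for CHAF1B, 0.33 for MCM2, -0.36 for CDT1, -0.48 for ORC6, -0.53 for RFC1 and -0.59 for CDK2. With the slide as a block, where Huh7 DSF rests on 1 array, the DSF differences were -0.25 for CDT1 and 0.50 for E2F2.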

How the results depend on the processing

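Among single genes given with array values, 5751 of the values under an alternative kept their direction and side of the threshold, 257 were no longer called, 47 were newly called and 25 turned direction. Scaling on the spike-in probes turned 23 directions. It gave 42 higher and 0 lower after 5-FU in Huh1, 43 higher and 0 lower in Huh7, 3 lower after DSF in Huh1, 1 higher after DSF in Huh7, 0 higher and 42 lower for DSF against 5-FU in Huh1, 0 higher in Huh7, and, for the line differences, 1 higher for DSF and 0 lower for 5-FU. The median became -0.11 after DSF in Huh7 and -0.09 for the DSF line difference. Values that turned positive after 5-FU in Huh1 were MCM3 0.34, MCM6 0.50, CDC45 0.31, GINS1 0.50, GINS3 0.65, GINS4 0.47, RFC1 0.62, POLA1 0.17, POLA2 0.74, PRIM2 0.66, POLD2 0.66, FEN1 0.72, RPA3 0.31, E2F1 0.53, RBL1 0.62, CHAF1A 0.82 and CHAF1B 0.64, and in Huh7 MCM3 0.90, RFC1 0.97, POLA1 0.23, PRIM2 0.41 and POLD2 0.77, while CHAF1B became -0.02 after DSF in Huh7. This follows from the scale itself, which raised the median of all genes after 5-FU. With quantile scaling MCM3 was 0.23 after 5-FU in Huh7, and 8 members were higher after DSF in Huh7. Median scaling gave 2 higher and 31 lower for DSF in Huh1, 7 higher after DSF in Huh7, 2 higher for DSF against 5-FU in Huh1, 2 lower for the DSF line difference and 0 lower for that of 5-FU, a median of -0.01 after 5-FU in Huh1 and of -0.06 between the controls, and -0.01 for RPA2 after DSF in Huh1. The median after 5-FU in Huh1, near 0, was -0.01 with the mean of a gene's probes, -0.01 without Huh1 control replicate 3 and -0.03 without Huh1 5-FU replicate 1.

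With a change of at least 1.5-fold required as well, the counts were 1 higher and 2 lower with DSF in Huh1, 1 and 1 in Huh7, 4 and 1 after 5-FU in Huh1, 18 and 1 in Huh7, 0 and 7 for DSF against 5-FU in Huh1, 16 lower in Huh7, 7 and 1 for the DSF line difference, 15 and 0 for that of 5-FU, and 6 lower between the controls. A fit of only the groups compared gave 7 lower after 5-FU in Huh1, and its cause was not tested. With the slide as a block the Huh7 DSF comparison also rests on 1 DSF array, and no count is given for it. Within the second slide, an alternative chosen after seeing the data that has 1 DSF array, assumed to vary like the others, 7 were higher and 1 lower after DSF, and 21 lower for DSF against 5-FU.

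Leaving out each array in turn gave 3 to 5 higher and 17 to 20 lower for DSF in Huh1 (median -0.18 to -0.10), 10 to 14 and 6 to 9 after DSF in Huh7 (0.03 to 0.10), 13 to 17 and 11 to 14 after 5-FU in Huh1 (-0.03 to 0.04), 31 to 34 and 3 to 4 after 5-FU in Huh7 (0.41 to 0.45), 6 to 8 and 21 to 24 for DSF against 5-FU in Huh1 (-0.24 to -0.18), 3 to 4 and 30 to 34 in Huh7 (-0.45 to -0.38), 16 to 21 and 3 to 4 for the DSF line difference (0.20 to 0.24), 27 to 28 and 1 for that of 5-FU (0.38 to 0.47), and 20 to 21 and 17 to 18 between the controls (0.07 to 0.12). The replicate numbers did not pair the arrays: 0 of 18 same-numbered pairs deviated together with r above 0.1 (r from -0.093 to 0.024). With the replicate number as a block the counts were 3 and 18, 11 and 7, 15 and 13, 34 and 3, 6 and 23, 3 and 31, 20 and 4, 27 and 1, and 20 and 16 in the same order. Signal limited no member, as all were well above background on every array.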
